A study of Mus musculus with 4 samples.

Results

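The cells described here carried messenger RNA of an oxidative-stress gene set. A member cell had at least 1 unique molecular identifier (UMI, a barcode added to every RNA molecule so that its copies count as 1) of 2 or more of the 4 genes Gdf15, Slc7a11, Srxn1 and Osgin1, and no UMI of Mrc1, a marker of border-associated macrophages. Of the 40869 cells with 200 to 6000 detected genes and at most 10% mitochondrial UMIs, 1033 (2.53%) were member cells, 170 from PRMT1FL mice and 863 from PRMT1Cx3cr1-KO mice. They were compared with the 34829 cells that had no UMI of any of the 4 genes, whether or not these had a UMI of Mrc1. All mice were on the C57BL/6 background, carried floxed Prmt1 alleles, were injected with tamoxifen, and were fed 0.2% cuprizone, a copper chelator that causes demyelination, for 5 wk. PRMT1Cx3cr1-KO mice also carried Cx3cr1-CreERT, a tamoxifen-inducible Cre placed at the Cx3cr1 locus, so deletion of Prmt1 (the arginine methyltransferase PRMT1) can reach any Cx3cr1-expressing cell, and whether PRMT1FL mice carried a Cre allele is not given in the sources used here. The labels give 5 to 6 wk as the age at the start of the diet, whereas the study's methods give that age for tamoxifen and a later start for the diet. Each genotype had 2 mice, and each mouse gave 1 library made from CD45 and CD11b sorted cells. With no mouse on a control diet, the levels below describe the cuprizone-fed brain alone.

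The 4 genes belong to stress programs that meet at the import of cystine. NRF2, the transcription factor encoded by Nfe2l2, is degraded with the help of KEAP1 in resting cells. When oxidants or electrophiles modify KEAP1, NRF2 accumulates and, paired with a small MAF protein, binds antioxidant response elements near genes for glutathione synthesis, thiol reduction and heme and iron handling. ATF4 is translated when eIF2alpha is phosphorylated in the integrated stress response, and it binds C/EBP-ATF elements near genes for amino acid transport and synthesis. Slc7a11 encodes the cystine-importing subunit of the cystine/glutamate exchanger and is a known target of both factors. Srxn1 encodes sulfiredoxin, which restores overoxidized peroxiredoxins. Osgin1 encodes an oxidative stress-induced growth inhibitor, and Gdf15 encodes a secreted stress cytokine of the TGF-beta superfamily. In the mm10 build, Srxn1 (ENSMUSG00000032802) spans chr2:152105516-152111376 on the plus strand, Slc7a11 (ENSMUSG00000027737) chr3:49892526-50443614 on the minus strand, Gdf15 (ENSMUSG00000038508) chr8:70629393-70632456 on the minus strand and Osgin1 (ENSMUSG00000074063) chr8:119434124-119446256 on the plus strand.

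The promoters of 3 of the 4 genes held a match to an element of one of these factors, and the stretches that hold it are shown because the member cells are defined by these genes. Promoter windows ran from 250 bases before to 50 bases after each RefSeq gene start (GRCm38.p6, 27025 genes with 32851 windows, all 4 genes matched). Both strands were searched for TGANTCAGC, a narrow form of the antioxidant response element, and for TGATGCAA, a C/EBP-ATF element. Other forms of these elements were not searched, so a window without a match may still hold one. Capitals mark the match, each sequence is written in the direction of its gene, and a match is a description of letters and not a shown binding site. The Slc7a11 stretch is chr3:50443634-50443753 on the minus strand, the Srxn1 stretch chr2:152105384-152105503 on the plus strand, and the Osgin1 stretch chr8:119437038-119437066 on the plus strand.
Slc7a11: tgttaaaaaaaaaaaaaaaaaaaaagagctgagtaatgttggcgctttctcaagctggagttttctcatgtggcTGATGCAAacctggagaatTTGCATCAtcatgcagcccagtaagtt
Srxn1: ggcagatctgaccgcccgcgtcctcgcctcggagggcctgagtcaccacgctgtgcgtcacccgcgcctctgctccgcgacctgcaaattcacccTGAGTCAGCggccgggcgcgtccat
Osgin1: aggggcccctGCTGACTCAcgcttatgaa
Slc7a11 held the C/EBP-ATF letters on both strands, at 66 and 47 bases before its start. Srxn1 held the antioxidant letters at 45 bases before its start, and Osgin1 held them on the opposite strand at 99 bases before its start. The Osgin1 match lies within an annotated exon of Osgin1, since the gene has an earlier start, and the other stretches overlap no annotated exon. Neither pattern was in the 2 windows of Gdf15. Among all 27025 genes, 1.37% held TGANTCAGC and 1.03% held TGATGCAA in this window.

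The libraries were of like depth, and the member cells were deeper than the cells around them. The library of PRMT1FL mouse 1 held 11554 barcodes and 91306165 UMIs, and that of mouse 2 held 8284 and 76943248. PRMT1Cx3cr1-KO mouse 1 gave 10498 barcodes and 85874289 UMIs, and mouse 2 gave 11029 and 99559644. Between 31 and 46 barcodes were shared by any pair of libraries, at most 0.563% of a library. Medians of member cells were 15163.5 UMIs in PRMT1FL mouse 1, 18698.5 in PRMT1FL mouse 2, 9686.5 in PRMT1Cx3cr1-KO mouse 1 and 9769 in PRMT1Cx3cr1-KO mouse 2. Cells without the 4 genes had medians of 5727, 6526.5, 5863 and 6632 UMIs in the same order of mice. Member cells were thus deeper in every library, and deeper in PRMT1FL than in PRMT1Cx3cr1-KO mice. Detection of a gene depends on depth, so each comparison of member cells below was repeated with cells matched on UMIs.

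The member cells carried the markers of microglia. All 10 microglial markers were detected in the member cells of each mouse, with summed levels of 23939, 24529, 23325 and 23751 CPM (the UMIs of a gene divided by all UMIs of the class and scaled to 1000000), against 26798, 28275, 25426 and 26719 CPM in the cells without the 4 genes. C1qa, a complement subunit made by microglia, was the most abundant of them, at 7050.0, 7481, 7018 and 7214 CPM in member cells. Of the 3 defining genes of border-associated macrophages, Cd163, Lyve1 and Cbr2, all were at 0 in PRMT1FL member cells and 2 of 3 were at 0 in those of each PRMT1Cx3cr1-KO mouse. Together the 8 markers of this type, led by Stab1, summed to 147, 145, 154 and 232 CPM in member cells. In the cells without the 4 genes the sums were 164, 176, 156 and 272 CPM. At least 3 of these markers were found in 4.88%, 4.55%, 3.13% and 5.22% of member cells, against 2.42%, 3.16%, 2.36% and 6.23% of the cells without the 4 genes. The 8 neutrophil markers summed to 3763 CPM in the member cells of PRMT1FL mouse 2, led by S100a8 at 1748 CPM, against 1.44, 2.55 and 4.37 CPM in the other 3 mice, where the defining Retnlg, Ly6g and Ngp were at 0. In the cells without the 4 genes they summed to 432, 1078, 0.819 and 125 CPM. The summed astrocyte markers, led by Slc1a3, were at 129, 240.1, 66.8 and 58.2 CPM in member cells and 87.1, 84.5, 59.3 and 43.1 CPM in the cells without the 4 genes. Other cell types in the sort also expressed rule genes, since Slc7a11 was detected in 39.9% of 286 cells with at least 3 astrocyte markers and 43.4% of 76 cells with at least 3 neutrophil markers. Of the 1033 member cells, 1018 had at least 3 microglial markers, 45 at least 3 markers of border-associated macrophages, 13 at least 3 astrocyte markers and 6 at least 3 neutrophil markers, and a cell could meet several of these limits. By mouse, 80 of 82 (97.6%), 79 of 88 (89.8%), 381 of 384 (99.2%) and 478 of 479 (99.8%) had at least 3 microglial markers, and PRMT1FL mouse 2 held all 6 cells with neutrophil markers and 6 of the 13 with astrocyte markers. Every comparison was therefore also made among cells with microglial markers and those of no other type, which kept 70, 56, 310 and 375 member cells. Scores against simulated doublets marked 20.7%, 14.8%, 26.04% and 20.5% of member cells, against 9.15%, 6.54%, 8.29% and 8.72% of all passing cells, and the part of doublets in the joint detection of rule genes was not tested beyond the recomputed values.

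How much of these detections was free RNA could be judged only roughly. Among the 76 cells with at least 3 endothelial markers, none had a UMI of Gdf15, Slc7a11 or Srxn1, which allows a share of up to 3.95% for each, and 1 had a UMI of Osgin1. These cells were shallow, with a median of 2159.5 UMIs against 6599 UMIs in cells with microglial markers, of which 4.71% had a UMI of Gdf15. At this depth the endothelial limit lies too near the microglial share for the shares to be told apart.

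The level of each rule gene in the member cells follows from the choice of members and is given without a test. Gdf15 stood at 109.0 and 132 CPM in the member cells of PRMT1FL mice and 482 and 530.3 CPM in those of PRMT1Cx3cr1-KO mice. Slc7a11 stood at 134, 70.2, 138 and 156 CPM, Srxn1 at 40.4, 38.7, 61.5 and 82.1 CPM, and Osgin1 at 13.7, 18.1, 80.2 and 75.2 CPM in the same order. The PRMT1Cx3cr1-KO values of Gdf15, Srxn1 and Osgin1 were above both PRMT1FL values, whereas those of Slc7a11 lay close to that of PRMT1FL mouse 1. Of all Gdf15 UMIs in passing cells, member cells held 14.8% and 17.4% in the PRMT1FL libraries but 55.3% and 56.6% in the PRMT1Cx3cr1-KO libraries. The highest single member cells had 14, 20, 78 and 89 Gdf15 UMIs.

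Which genes met in a cell differed by library. Slc7a11 was detected in 78.0% and 73.9% of PRMT1FL member cells and 63.3% and 62.0% of PRMT1Cx3cr1-KO member cells. Osgin1 was detected in 23.2% and 23.9% of the former and 56.0% and 47.6% of the latter. Gdf15 was present in 53.7%, 64.8%, 58.6% and 64.9% of member cells, with overlapping genotypes. The most common combination was Slc7a11 with Srxn1 in PRMT1FL mouse 1 (27 cells) and PRMT1Cx3cr1-KO mouse 2 (78 cells), Gdf15 with Slc7a11 in PRMT1FL mouse 2 (30 cells), and Slc7a11 with Osgin1 in PRMT1Cx3cr1-KO mouse 1 (63 cells). All 4 genes were found together in 0, 1, 13 and 28 cells. Over all passing cells, Osgin1 was detected in 2.86%, 3.37%, 17.6% and 21.2% of cells with a UMI of Gdf15 and in 0.792%, 1.44%, 4.64% and 4.09% of cells without one, and deeper cells are more likely to show both.

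Many member cells lay just inside the limit of 2 genes. Exactly 2 genes were detected in 92.7% and 88.6% of PRMT1FL member cells and 77.1% and 71.0% of PRMT1Cx3cr1-KO member cells. A single UMI of each of 2 genes admitted 34, 36, 102 and 117 of the 82, 88, 384 and 479 member cells. Just outside stood 1081, 823, 1436 and 1456 cells with 1 of the 4 genes and no UMI of Mrc1. Of these, 768, 588, 1009 and 1048 had a single UMI. A further 7, 1, 20 and 35 cells met the limit but had a UMI of Mrc1.

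Member cells made up a larger share of the passing cells in both PRMT1Cx3cr1-KO mice than in either PRMT1FL mouse. They were 0.718% of 11427 cells (exact 95% binomial interval 0.571 to 0.890%) and 1.08% of 8170 cells (0.865 to 1.33%) for the PRMT1FL genotype, against 3.70% of 10370 cells (3.35 to 4.08%) and 4.39% of 10902 cells (4.02 to 4.80%) for PRMT1Cx3cr1-KO. The intervals cover counting error only. The means were 0.897% ± 0.254 (SD, n = 2) and 4.05% ± 0.488 (SD, n = 2), a difference of 3.15 percentage points and a ratio of 4.51, and the genotypes did not overlap. A two-sided exact permutation test over the 4 mice gave p = 0.333, the smallest value that 2 against 2 mice can reach. Each cell was also thinned to 2000 UMIs, with shallower cells left out (1076, 649, 1093 and 965 cells). The PRMT1FL shares were then 0.106% and 0.106% and the PRMT1Cx3cr1-KO shares 1.16% and 1.34%, a ratio of 11.8. These PRMT1FL shares rest on 11 and 8 member cells (exact 95% binomial intervals 0.0531 to 0.190% and 0.0459 to 0.209%), so the ratio is imprecise. Among cells with microglial markers and no others the shares were 0.724%, 0.832%, 3.48% and 4.02%, and requiring 3 of the 4 genes left 6, 10, 88 and 139 cells. Without cells like simulated doublets the shares were 0.626%, 0.982%, 2.99% and 3.83%.

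**Figure D1:**
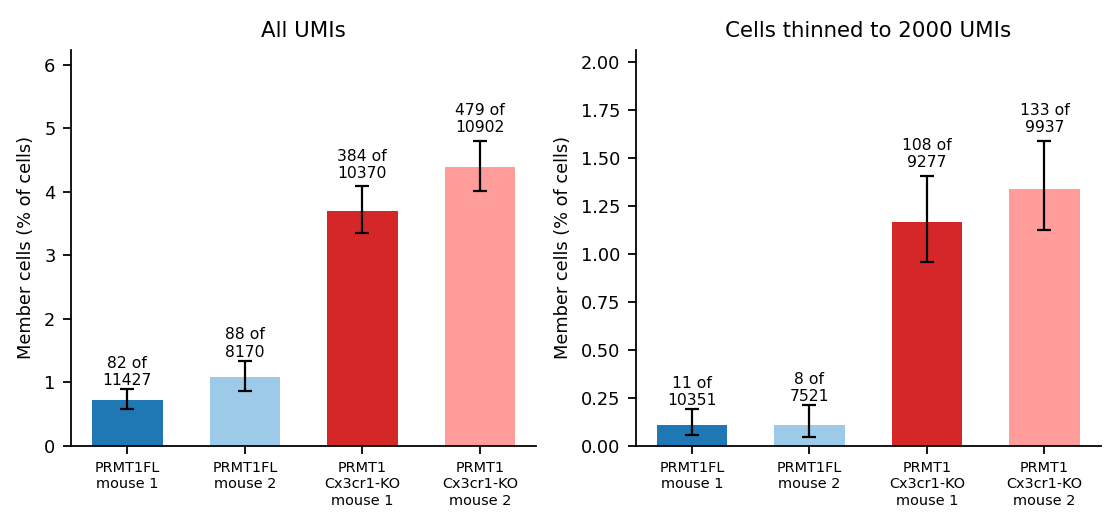
Share of passing cells that were member cells (y axis, percent) in each of the 4 mice, with all UMIs and after thinning each cell to 2000 UMIs; bars are single libraries, error bars exact 95% binomial intervals, and the numbers give member cells of all cells. Both PRMT1Cx3cr1-KO mice (3.70% and 4.39%) stood above both PRMT1FL mice (0.718% and 1.08%), and did so after thinning (1.16% and 1.34% against 0.106% and 0.106%).

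The share was highest among the deepest cells of every library, and the values of the genotypes did not overlap within any range of depth. Among cells with at least 4000 and under 8000 UMIs it was 0.329% and 0.377% for the PRMT1FL genotype against 3.05% and 3.78% for PRMT1Cx3cr1-KO. Among cells with at least 16000 UMIs it was 3.26% and 4.13% against 9.95% and 9.50%. In the shallowest range, under 2000 UMIs, the shares were 0 of 1076 cells (exact 95% upper limit 0.342%) and 0.616% against 0.915% and 1.14%, and the interval of PRMT1FL mouse 2 overlapped those of the PRMT1Cx3cr1-KO mice.

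**Figure D2:**
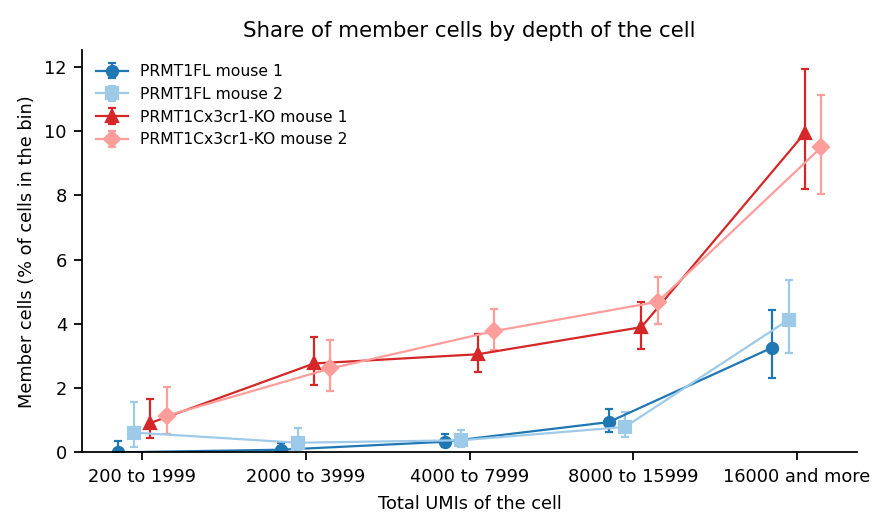
Share of cells that were member cells (y axis, percent) by the number of UMIs in the cell (x axis, 5 ranges) for the 4 mice; points are shares in single libraries and bars exact 95% binomial intervals. Both PRMT1Cx3cr1-KO lines lie above both PRMT1FL lines in every range, and all 4 are highest at 16000 or more UMIs.

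Member cells were next compared with the cells without the 4 genes of the same mouse, by edgeR's quasi-likelihood test on UMIs summed per mouse and class with the mouse as a block and Benjamini-Hochberg adjustment over all genes. The rule genes were left out of the counts. Of 13746 genes tested, 402 (2.92%) passed an adjusted p of 0.05, 278 (2.02%) higher and 124 (0.902%) lower in member cells. With the comparison cells matched to the member cells on UMIs, 353 were higher and 156 lower of 10269 genes, and of the 402 genes 268 (66.7%) were called again, all tested ones with the same sign. The classes are parts of the same libraries and were separated by detection of 4 genes, so these calls describe what accompanies that detection.

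NRF2 targets outside the rule were higher in member cells, chiefly in those of the PRMT1Cx3cr1-KO mice. Of 28 tested targets, 12 were higher and 1 lower, with a median log2 fold change of 0.57 against -0.01 over all genes. Gclm, the modifier subunit of the enzyme that makes the glutathione precursor, was at 18.0, 17.4, 28.8 and 45.1 CPM in the cells without the 4 genes and 25.3, 41.7, 137 and 228 CPM in member cells, in the order PRMT1FL mice 1 and 2, PRMT1Cx3cr1-KO mice 1 and 2. Gclm was higher in the member cells of all 4 mice, in PRMT1FL mouse 2 mainly through 10 cells with at least 3 rule genes (levels by class below). The PRMT1Cx3cr1-KO member cells stood above all other sums (log2 fold change 1.74, SE 0.20, edgeR adjusted p = 0.000373). Txnrd1, the cytosolic thioredoxin reductase, rose from 23.6, 19.4, 30.4 and 34.3 CPM to 57.0, 48.4, 114 and 153 CPM, with no overlap between the classes (1.68, SE 0.12, edgeR adjusted p = 1.26e-05). Gsr, glutathione reductase, rose from 14.6, 14.4, 19.2 and 24.1 CPM to 18.8, 24.8, 57.9 and 71.3 CPM (1.19, SE 0.15, edgeR adjusted p = 0.00058). The rise was again larger in the PRMT1Cx3cr1-KO sums. Sqstm1, the autophagy receptor p62 that also binds KEAP1, rose by 1.15 (SE 0.14, edgeR adjusted p = 0.000408) and Mgst1, a microsomal glutathione transferase, by 2.63 (SE 0.23, edgeR adjusted p = 4.92e-05). Ephx1, the microsomal epoxide hydrolase, was the single target that fell, by 0.55. Hmox1, heme oxygenase 1, did not pass, at 91.1, 90.1, 89.2 and 92.0 CPM against 105, 85.9, 141 and 176 CPM (edgeR adjusted p = 0.108). Without PRMT1Cx3cr1-KO mouse 1 or without mouse 2 of that group, the count of higher targets was 6 in each case, and with cells matched on UMIs it was 14 of 25.

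Of 9 genes that regulate NRF2, 2 were higher: Nfe2l1, a related factor, by 0.40 (not with cells matched on UMIs, edgeR adjusted p = 0.108) and the small MAF gene Maff by 0.80. Nfe2l2 itself was at 283, 265, 301 and 255 CPM against 321, 312, 451 and 413 CPM, higher in 4 of 4 mice and just outside the threshold (0.37, SE 0.09, edgeR adjusted p = 0.0501). Of 16 glutathione genes 5 were higher and none lower (median 0.10), all of them for synthesis, reduction, conjugation or breakdown of the tripeptide: Gclc, Gclm, Gsr, Mgst1 and Chac1, all 5 also in the lists of NRF2 targets or the integrated stress response.

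Genes of the integrated stress response were higher in member cells. Of 27 tested, 15 were higher and none lower, with a median of 0.49. Trib3, a pseudokinase that feeds back on ATF4, was at 4.03, 3.29, 3.74 and 1.78 CPM in the cells without the 4 genes and 7.22, 10.3, 16.4 and 18.2 CPM in member cells (log2 fold change 2.14, SE 0.30, edgeR adjusted p = 0.00133). Asns, asparagine synthetase, rose from 20.3, 20.1, 19.8 and 13.9 CPM to 46.9, 39.3, 32.5 and 29.8 CPM (0.92, SE 0.11, edgeR adjusted p = 0.000533). In contrast to Gclm, the Asns sums of PRMT1FL member cells were the higher ones. Nupr1, a stress-responsive chromatin protein, rose from 51.7, 48.2, 51.4 and 46.6 CPM to 84.5, 79.2, 81.3 and 80.1 CPM, a nearly equal step in the 4 mice (0.66, SE 0.08, edgeR adjusted p = 0.000565). Sesn2, a leucine-responsive brake on mTORC1, rose by 1.15, the glutathione-degrading Chac1 by 2.20, and Atf4 itself by 0.51. With cells matched on UMIs, 12 genes of the list were higher, and among matched cells with microglial markers alone 13.

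Inflammatory genes were higher across the list and in both genotypes, 14 of 15 with none lower and a median of 0.85. Tnf was at 171, 181, 345 and 229.6 CPM in the cells without the 4 genes and 478, 622, 1297 and 1071 CPM in member cells, with no overlap (log2 fold change 1.80, SE 0.10, edgeR adjusted p = 1.62e-06). Cxcl2, a neutrophil-attracting chemokine, rose from 223, 155, 383 and 403 CPM to 852, 725, 933 and 771 CPM (1.53, SE 0.18, edgeR adjusted p = 0.000412), and its member-cell sums overlapped between genotypes. Tnfaip2, a TNF-induced gene, was at 58.0, 41.9, 109 and 78.4 CPM against 117, 89.5, 536 and 494 CPM (1.79, SE 0.21, edgeR adjusted p = 0.000408). Here the rise was larger in the PRMT1Cx3cr1-KO member cells. Outside the list, the costimulatory ligand Tnfsf9 rose by 1.70.

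Immediate early and heat-shock genes, known to be induced while tissue is dissociated, moved with NRF2 targets by mouse. Of 16 such genes, 4 were higher (Fos, Egr1, Ier2 and Ier3) and none lower, with a median of 0.22, and 7 were higher once cells were matched on UMIs. Their median log2 ratio of member cells to cells without the 4 genes was -0.04 and 0.10 for PRMT1FL but 0.63 and 0.72 for PRMT1Cx3cr1-KO, beside 0.15, 0.21, 0.72 and 0.87 for NRF2 targets. The ratio for the integrated stress response was 0.47, 0.46, 0.45 and 0.51, and that for inflammatory genes 0.90, 0.71, 0.71 and 0.93, with no such step between genotypes. The inflammatory list also holds Ccl3 and Ccl4, which the study names with Jun and Hspa1a as markers of transcription set off by enzymatic isolation. The study used no transcription inhibitor during isolation, and it reported no evidence that these markers shaped a particular cluster. The part that cell isolation had in the values of any of these lists, the inflammatory one included, was not tested.

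**Figure D3:**
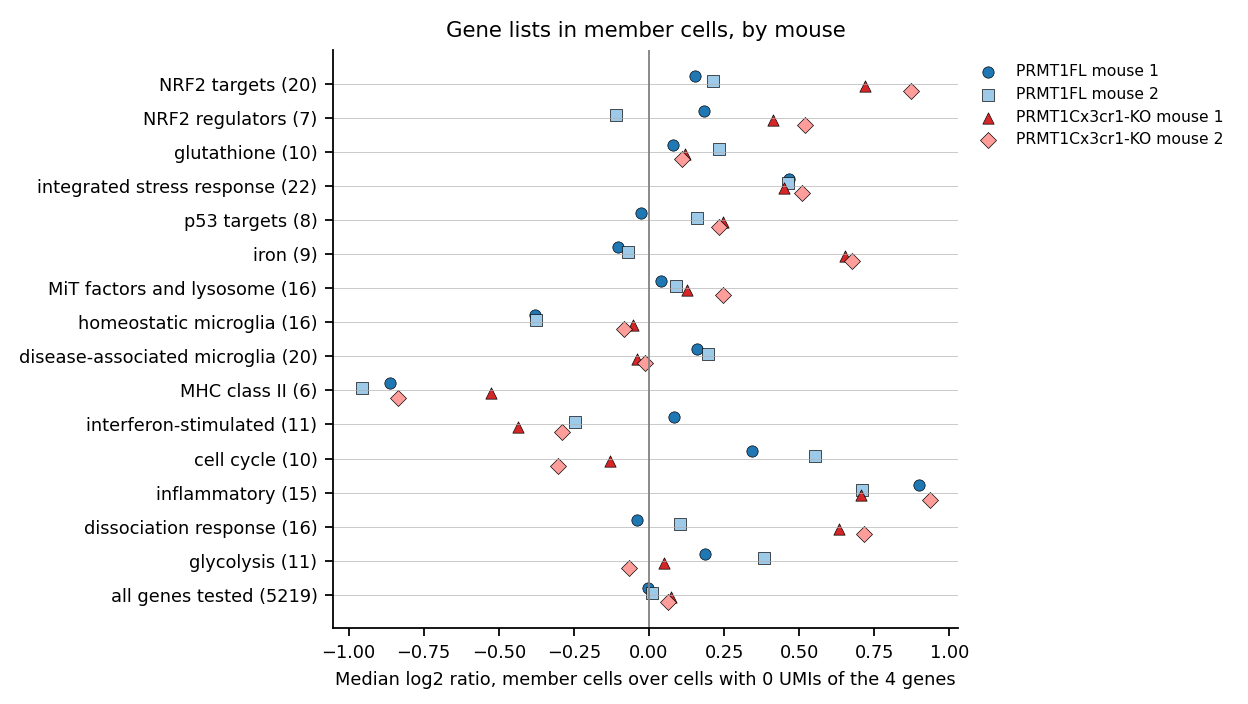
Median log2 ratio of the level in member cells to that in cells without the 4 genes (x axis) for each gene list (rows, with the number of genes used) in each mouse (points). NRF2 targets, iron and dissociation genes stood higher in the PRMT1Cx3cr1-KO mice, while the integrated stress response stayed between 0.45 and 0.51 and MHC class II genes lay below 0 in all 4 mice.

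MHC class II genes, which present antigen, were lower in member cells in 4 of 7 with a median of -0.96. H2-Aa, the class II alpha chain, was at 189, 247, 56.8 and 43.7 CPM in the cells without the 4 genes and 80.9, 91.3, 31.5 and 13.8 CPM in member cells, lower in 4 of 4 mice (log2 fold change -1.34, SE 0.12, edgeR adjusted p = 4.92e-05). Cd74, the invariant chain, fell by 0.96 (SE 0.09, edgeR adjusted p = 8.36e-05). With cells matched on UMIs, 3 of 6 class II genes were lower and Cd74 was not among them (-0.34, edgeR adjusted p = 0.107). Among matched cells with microglial markers alone 0 of 6 passed edgeR's test. Their fold changes there were negative, at -0.85 for H2-Eb1, -0.58 for H2-Aa, -0.36 for H2-Ab1, -0.31 for Cd74, -0.27 for H2-DMa and -0.26 for H2-DMb1. Cells with a UMI of Mrc1 were kept out of the member cells alone, and 1229 of the comparison cells had at least 3 markers of border-associated macrophages. With the comparison cells also limited to those without a UMI of Mrc1 (10039, 7093, 8314 and 8553 cells), 4 of 7 were lower with a median of -0.63, and H2-Aa fell by 0.70 (edgeR adjusted p = 0.00871).

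Of 16 homeostatic microglial genes none was higher and 2 were lower, Siglech by 0.66 and the fructose transporter Slc2a5 by 0.39 (edgeR adjusted p = 0.225 with cells matched on UMIs), and all 16 fold changes were negative with a median of -0.24. P2ry12, the purinergic receptor of resting microglia, was not among them (-0.29, edgeR adjusted p = 0.45), and its log2 ratio of member cells to cells without the 4 genes was -0.90 and -0.75 for PRMT1FL but 0.37 and 0.26 for PRMT1Cx3cr1-KO. The transcription factor gene Sall1 was split in the same way, at -0.71 and -0.67 against 0.32 and 0.33.

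Of 20 disease-associated microglial genes, 2 were higher, Gpnmb and Lgals3, and 1 was lower, Ccl6, with a median of -0.03. Gpnmb, a glycoprotein of phagocytic macrophages, was at 106, 89.2, 84.6 and 85.8 CPM against 206, 237, 216 and 247 CPM, a rise of like size in the 4 mice (log2 fold change 1.26, SE 0.09, edgeR adjusted p = 1.26e-05). It also belongs to the list of MiT factors, the transcription factors that drive lysosomal genes, of which 4 of 20 were higher: Tfec by 2.31, Atp6v0d2 by 1.39 (edgeR adjusted p = 0.0523 with comparison cells free of Mrc1), Rragd by 1.13 and Gpnmb. Of 15 p53 targets 4 were higher, including the cell cycle inhibitor Cdkn1a, which rose from 166, 155, 247 and 185 CPM to 376, 412, 440.1 and 445 CPM (1.11, SE 0.11, edgeR adjusted p = 9.29e-05). Of 12 iron genes 1 was higher and 1 lower, the ceruloplasmin gene Cp (not with comparison cells free of Mrc1, edgeR adjusted p = 0.180), and of 13 glycolytic genes 1 was higher. None of 12 interferon-stimulated genes passed edgeR's test (7 had an unadjusted p under 0.05, and DESeq2 called 1 lower), and none of 12 cell cycle genes did (2 had an unadjusted p under 0.05, and DESeq2 called 0).

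Levels of several of these genes rose step by step with the number of rule genes detected in PRMT1Cx3cr1-KO mice. In cells with 0, 1, 2 and at least 3 of the 4 genes, Gclm was at 28.8, 44.4, 100.04 and 283 CPM in PRMT1Cx3cr1-KO mouse 1 and at 45.1, 89.2, 196 and 304 CPM in mouse 2. In PRMT1FL mouse 1 it was at 18.0, 20.8, 26.9 and 0 CPM, and in mouse 2 at 17.4, 17.8, 18.1 and 195 CPM. The last of these classes, with at least 3 genes, held 6 and 10 cells in the PRMT1FL mice, too few for a firm level, and it went either way. Nupr1 rose in all 4 mice over the classes of 0, 1 and 2 genes, from 51.7 to 65.9 and 85.2 CPM in PRMT1FL mouse 1 and from 51.4 to 61.5 and 75.0 CPM in PRMT1Cx3cr1-KO mouse 1. Cst7, cystatin F of disease-associated microglia, went down with the number of genes in PRMT1Cx3cr1-KO mice (1222, 1093, 911 and 671 CPM in mouse 1) and not in PRMT1FL mice (1736, 1763, 1764 and, in 6 cells, 1821 CPM in mouse 1). These levels are a description across classes that differ in depth, and only the class with 0 genes kept cells with a UMI of Mrc1.

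**Figure D4:**
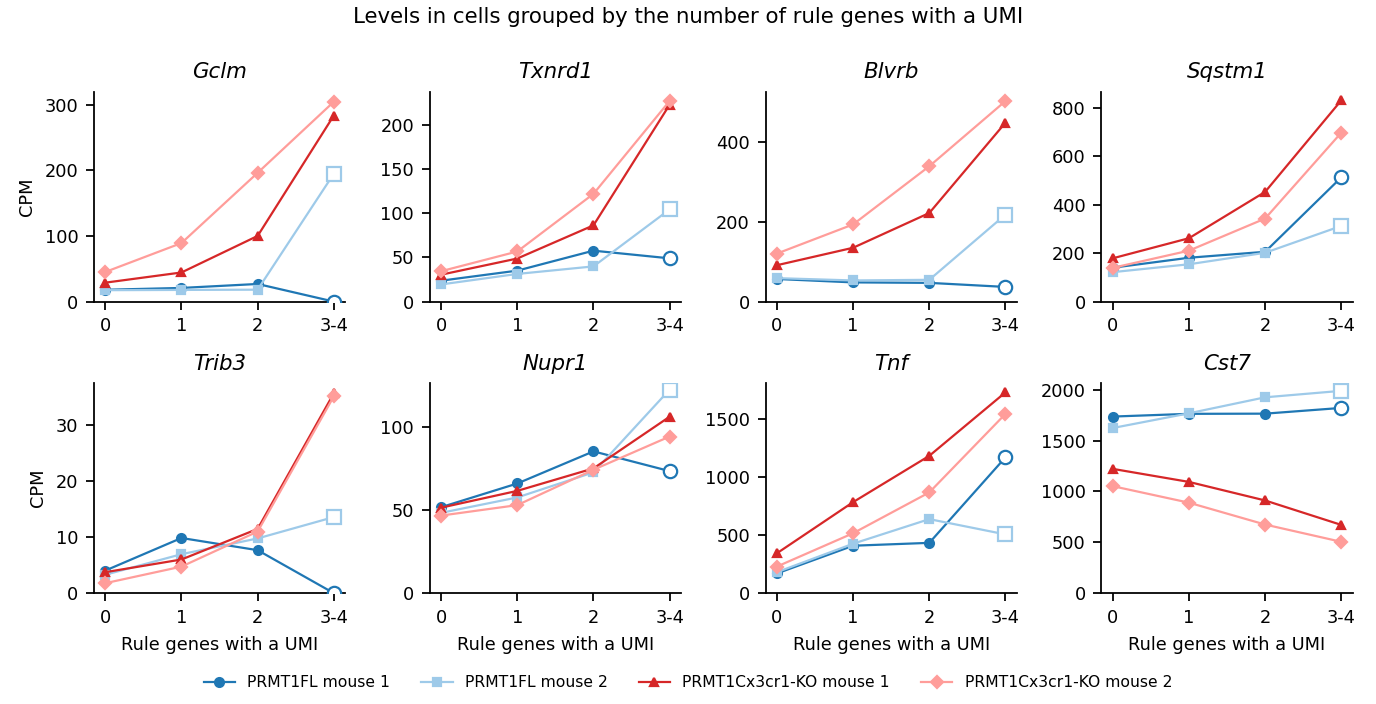
Level of 8 genes (y axes, CPM) in cells with 0, 1, 2 and 3 or 4 of the rule genes (x axis) in each mouse (lines). Open markers are classes of under 20 cells, and cells with a UMI of Mrc1 were kept in the class of 0 genes only. Gclm, Txnrd1, Blvrb and Sqstm1 climb at every step in both PRMT1Cx3cr1-KO mice, while in the PRMT1FL mice the last class has 6 and 10 cells, Nupr1 and Tnf climb in both genotypes from 0 to 2 genes, and Cst7 goes down in PRMT1Cx3cr1-KO mice only.

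Genotype was then compared within member cells, starting with the deleted gene. Prmt1 was at 103 and 98.0 CPM in PRMT1FL member cells and 65.9 and 65.3 CPM in PRMT1Cx3cr1-KO member cells, with no overlap (log2 fold change -0.77, SE 0.13, edgeR adjusted p = 0.00117). In cells without the 4 genes it was at 90.1, 84.3, 71.2 and 71.0 CPM (-0.33, edgeR adjusted p = 0.0669), and the genotype effect was larger in member cells by 0.44 (SE 0.11, edgeR adjusted p = 0.00732), a difference of like size that did not pass with cells matched on UMIs (-0.47, edgeR adjusted p = 0.0825). UMIs are counted per gene, so intact and recombined Prmt1 transcripts are not separated. Of 10000 genes tested in member cells, the rule genes again left out of the counts, 835 (8.35%) passed, 398 (3.98%) higher and 437 (4.37%) lower in PRMT1Cx3cr1-KO mice. With the deeper PRMT1FL member cells as the standard, drawing PRMT1Cx3cr1-KO member cells of like UMIs left 119 higher and 157 lower. The draw kept 164 of 384 and 162 of 479 PRMT1Cx3cr1-KO member cells, so it changed the number of cells as well as their depth. The part of the lower cell number in the counts after the draw, here and below, was not tested. In cells without the 4 genes 221 of 14165 genes (1.56%) passed, 71 (0.501%) higher and 150 (1.06%) lower, a count that leaving out a single mouse moved to between 5 and 3146. Whether the genotype effect differed between the classes was tested as an interaction within the same mice. It did so for 1517 of 13746 genes (11%), 581 (4.23%) more positive and 936 (6.81%) more negative in member cells, and for 192 and 361 genes with cells matched on UMIs.

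NRF2 targets were higher in PRMT1Cx3cr1-KO than in PRMT1FL member cells. Of 25 tested, 20 were higher and 1 lower with a median of 0.83 (0.01 over all genes), and 9 were higher with member cells drawn to like UMIs. Blvrb, biliverdin reductase B, was at 46.2 and 76.2 CPM in PRMT1FL member cells and 267 and 387 CPM in PRMT1Cx3cr1-KO member cells (log2 fold change 2.25, SE 0.20, edgeR adjusted p = 4.88e-06). In cells without the 4 genes it was at 56.5, 58.6, 90.9 and 120.0 CPM, so the genotypes stood apart there too, by less, and the difference of the effects was 1.40 (SE 0.13, edgeR adjusted p = 3.45e-09). Gclm differed by 2.27 between the member cells of the genotypes (SE 0.23, edgeR adjusted p = 2.32e-05), which exceeded its effect in cells without the 4 genes by 1.24 (SE 0.15, edgeR adjusted p = 5.68e-07). Over the list, 18 of 28 targets had a more positive genotype effect in member cells and none a more negative one, with a median difference of 0.63, and the count was 13 of 25 with cells matched on UMIs and 11 of 24 among matched cells with microglial markers alone. Trim16 had no UMI in PRMT1FL member cells and 18 and 29 UMIs in PRMT1Cx3cr1-KO member cells. Ephx1 was again the exception and was lower, by 1.42.

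Iron genes were higher in 6 of 11 (median 0.39), 4 of them also NRF2 targets. Slc40a1, the iron exporter ferroportin, was at 9.39 and 15.1 CPM in PRMT1FL member cells and 54.5 and 69.5 CPM in PRMT1Cx3cr1-KO member cells (log2 fold change 2.16, SE 0.23, edgeR adjusted p = 2.51e-05). In cells without the 4 genes it was at 20.6, 21.8, 21.0 and 24.0 CPM, so PRMT1FL member cells lay below and PRMT1Cx3cr1-KO member cells above a common level (difference of effects 2.11, SE 0.21, edgeR adjusted p = 6.74e-09). Ftl1, the ferritin light chain, was at 5167 and 5238 CPM against 7310.1 and 9123 CPM in member cells (0.51, SE 0.10, edgeR adjusted p = 0.0031). With member cells drawn to like UMIs, 1 iron gene was higher, Slc40a1 by 1.85 (edgeR adjusted p = 0.000558). Of 14 glutathione genes 7 were higher and 1 lower (median 0.50), and 3 were higher with member cells drawn to like UMIs.

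The integrated stress response did not share this direction. Of 27 genes, 1 was higher and 6 were lower in PRMT1Cx3cr1-KO member cells, with a median of -0.18. The count of lower genes was 3 with member cells drawn to like UMIs and 2 without PRMT1FL mouse 1. Atf5 was at 54.2 and 60.5 CPM in PRMT1FL and 33.6 and 32.5 CPM in PRMT1Cx3cr1-KO member cells (log2 fold change -0.95, SE 0.15, edgeR adjusted p = 0.00109), and Asns was lower by 0.62. The higher gene was Ppp1r15a, the phosphatase subunit GADD34, at 282 and 224 CPM against 543 and 456 CPM (0.83, SE 0.14, edgeR adjusted p = 0.00121). The difference of effects passed for 4 genes upward and 5 downward of 27, with a median of 0.01. Among 14 p53 targets 1 was higher, Bbc3 (0.79, edgeR adjusted p = 0.0365), but not with member cells drawn to like UMIs (0.44, edgeR adjusted p = 0.479) or by DESeq2.

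Disease-associated microglial genes were lower in PRMT1Cx3cr1-KO member cells, 14 of 20 with none higher and a median of -0.48, and 9 of 20 with member cells drawn to like UMIs. Cst7 was at 1768 and 1934 CPM in PRMT1FL member cells and 862 and 624 CPM in PRMT1Cx3cr1-KO member cells (log2 fold change -1.46, SE 0.14, edgeR adjusted p = 1.06e-05). In cells without the 4 genes it was at 1736, 1623, 1222 and 1052 CPM, and the effect was more negative in member cells by 0.89 (SE 0.07, edgeR adjusted p = 1.7e-10). Axl, a receptor tyrosine kinase for apoptotic cells, was lower by 1.22. Over the list the difference of effects was negative for 13 of 20 genes and positive for 2, and negative for 7 among matched cells with microglial markers alone.

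Homeostatic genes moved both ways, 5 higher and 3 lower of 16. P2ry12 was at 222 and 282 CPM in PRMT1FL member cells and 664 and 669 CPM in PRMT1Cx3cr1-KO member cells (log2 fold change 1.25, SE 0.13, edgeR adjusted p = 1.99e-05), against 416, 475, 513 and 559 CPM in cells without the 4 genes. The PRMT1FL member cells thus stood lowest and the PRMT1Cx3cr1-KO member cells highest (difference of effects 1.02, SE 0.08, edgeR adjusted p = 1.34e-10). Siglech, a microglial lectin, moved the other way, at 335 and 336 CPM against 187 and 149 CPM. Cx3cr1, the locus that holds the CreERT, was at 1187 and 1199.9 CPM against 933 and 933 CPM in member cells and lower by 0.51. In cells without the 4 genes it was at 1454 and 1550 CPM against 826 and 824 CPM (-0.90, edgeR adjusted p = 0.0241). For this gene an effect of the CreERT allele cannot be told apart from one of PRMT1 loss or of cell state.

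All 6 tested MHC class II genes were lower in PRMT1Cx3cr1-KO member cells, with a median of -1.51, 4 of them with member cells drawn to like UMIs and 3 by DESeq2. H2-Aa differed by -2.12 (SE 0.26, edgeR adjusted p = 9.81e-05), and by as much in cells without the 4 genes (-2.15), so that the difference of effects was 0.02 (edgeR adjusted p = 0.968). It was 0.62 (edgeR adjusted p = 0.00141) once comparison cells with a UMI of Mrc1 were left out, but -2.05 (edgeR adjusted p = 0.00211) among matched cells with microglial markers alone. For Cd74 it was 0.08 with all cells, 0.36 (edgeR adjusted p = 0.00151) without the comparison cells that had Mrc1, and -1.44 (edgeR adjusted p = 4.16e-06) among matched cells with microglial markers alone. For H2-Aa and Cd74 the difference of effects thus had no sign that held across the cells compared. That of H2-DMa was negative in each of these sets, at -0.42 (edgeR adjusted p = 0.00168) with all cells. It was -0.52 (edgeR adjusted p = 0.02) among matched cells with microglial markers alone. With cells matched on UMIs it did not pass (-0.30, edgeR adjusted p = 0.112). Of 12 interferon-stimulated genes 3 were lower, but 0 by edgeR with member cells drawn to like UMIs, where Rsad2 (-1.37, edgeR adjusted p = 0.0544) and Ifitm3 (-0.68, edgeR adjusted p = 0.0528) lay just outside the threshold, and 5 once those cells were also limited to microglial markers. Of 12 cell cycle genes 1 was lower, Cdk1 (-0.79, edgeR adjusted p = 0.0176), but not with member cells drawn to like UMIs (-0.57, edgeR adjusted p = 0.176) or by DESeq2, and for 8 of 12 the genotype effect was more negative in member cells (median -0.77). Top2a, a topoisomerase of dividing cells, was at 20.7, 25.1, 32.4 and 47.1 CPM in cells without the 4 genes and 41.2, 42.3, 36.8 and 36.0 CPM in member cells (difference of effects -1.11, SE 0.19, edgeR adjusted p = 7.97e-05). With cells matched on UMIs the count was 3 and Top2a was not among them (-0.72, edgeR adjusted p = 0.105). Glycolytic genes were lower in 8 of 13 (median -0.47) and in 4 with member cells drawn to like UMIs, among them Gapdh at 2597 and 3098 CPM against 1896 and 2057 CPM.

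Inflammatory genes showed no common genotype direction, 3 higher and 2 lower of 15. Tnf was higher by 0.96 (SE 0.14, edgeR adjusted p = 0.000328), but by 0.43 with an edgeR adjusted p of 0.19 when member cells with microglial markers alone were drawn to like UMIs, and Tnfaip2 by 2.17 (SE 0.14, edgeR adjusted p = 2.34e-07). Il6, outside the list, was lower, at 28.9 and 38.1 CPM against 13.2 and 8.41 CPM (log2 fold change -1.82, SE 0.26, edgeR adjusted p = 0.000314). Dissociation genes were higher in 7 of 16 with none lower (median 0.30), and 3 were higher with member cells drawn to like UMIs. Hspa1a, which shares reads with the nearly identical Hspa1b, was at 16.6 and 18.7 CPM against 64.0 and 72.0 CPM. The NRF2 target counts above stand beside this shift in genes that respond to isolation, whose part in them was not tested.

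Further genes with large differences lay outside the lists. Pdlim4, a cytoskeletal adaptor, was at 20.9 and 30.8 CPM in PRMT1FL and 203 and 262 CPM in PRMT1Cx3cr1-KO member cells (log2 fold change 2.99, SE 0.18, edgeR adjusted p = 1.25e-07). Mmp12, macrophage elastase, was at 43.3 and 24.8 CPM against 111 and 177 CPM (1.96, SE 0.23, edgeR adjusted p = 8.02e-05), while in cells without the 4 genes the PRMT1Cx3cr1-KO values were the lower ones (18.9, 29.0, 8.53 and 8.74 CPM). The genes that fell furthest were ones that astrocytes express, led by Ptn at 129 and 35.1 CPM against 1.91 and 3.20 CPM and Sparcl1 at 36.1 and 79.8 CPM against 6.59 and 1.51 CPM, and followed by Aldoc at 27.4 and 59.3 CPM against 3.83 and 3.36 CPM. They moved with the astrocyte markers given above, and in member cells with microglial markers alone they were under the filter on low counts.

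**Figure D5:**
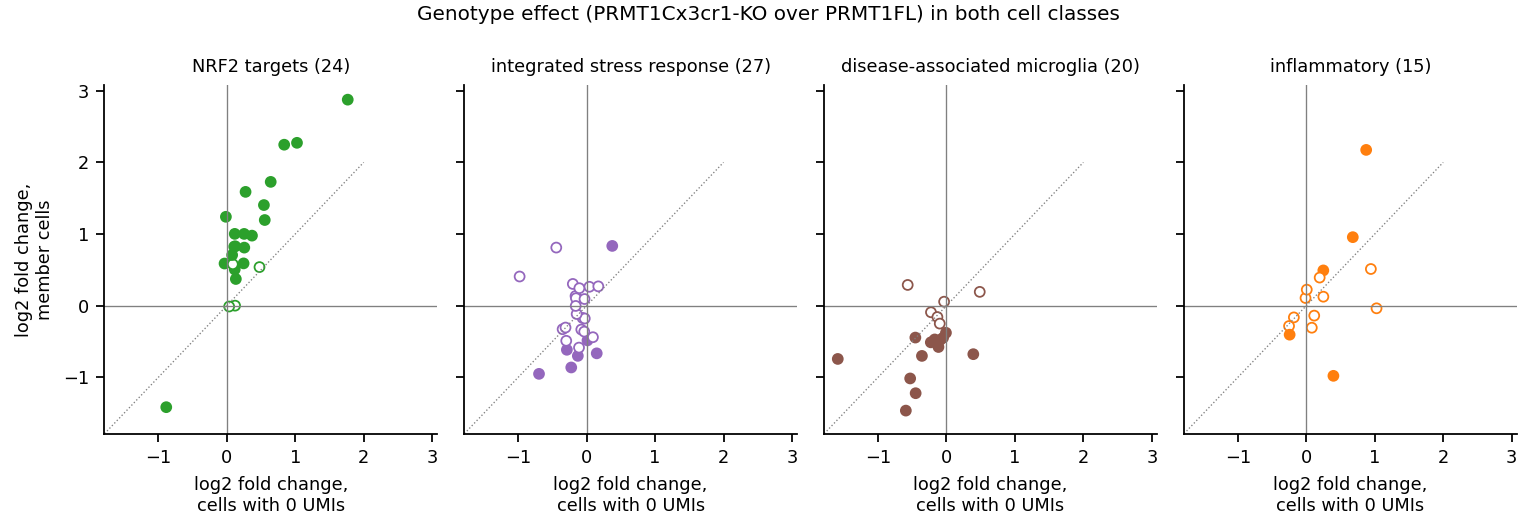
Log2 fold change of PRMT1Cx3cr1-KO against PRMT1FL in cells without the 4 genes (x axis) and in member cells (y axis) for genes of 4 lists; filled points had an edgeR adjusted p of at most 0.05 in member cells, and the dotted line marks equal effects. Most NRF2 targets lie above the line (Gclm 2.27, Blvrb 2.25 in member cells) and most disease-associated genes below it (Cst7 -1.46); Trim16, with no UMI in PRMT1FL member cells, is not drawn.

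Within the member cells, those with a UMI of Gdf15 were compared with those without. They numbered 44, 57, 225 and 311 against 38, 31, 159 and 168 cells. By the rule a member cell without Gdf15 had at least 2 of Slc7a11, Srxn1 and Osgin1 and one with it needed 1, so the classes differ in these genes by construction, and the rule genes were left out. Of 9149 genes tested by edgeR, 3 (0.0328%) passed, 0 (0%) higher and 3 (0.0328%) lower in cells with Gdf15, while 391 had an unadjusted p under 0.05 and DESeq2 called 1. Il1rn, the interleukin-1 receptor antagonist, was at 36.1, 107, 25.0 and 19.7 CPM without Gdf15 and 12.05, 14.8, 9.63 and 5.66 CPM with it (log2 fold change -1.95, SE 0.24, edgeR adjusted p = 0.00477). It was lower in 4 of 4 mice and the classes did not overlap. Its adjusted p by edgeR was 0.00946 among cells with microglial markers alone and 0.00464 with cells matched on UMIs. The remaining calls, S100a6 and Apod, rested mostly on the UMIs of a single mouse. No gene of the 15 lists passed, and Trib3, for example, was higher by 1.17 with an edgeR adjusted p of 0.319.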

How the data were processed

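Brain myeloid cells sorted for CD45 and CD11b from 4 mice were profiled by 10x droplet RNA-seq. The deposited matrices hold UMI counts per gene and barcode, not normalized by the authors; the submitters' processing notes name Cell Ranger 3.1.0, Seurat 3.2.0, Scanpy 1.5.2 and mm10, and no cell annotation was used here. The member rule and the 15 gene lists were chosen with earlier results of these data known.

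A cell passed with 200 to 6000 genes if mitochondrial UMIs were no more than 10%. Doublets were not removed from the primary values: scores against simulated doublets marked 6.54 to 9.15% of cells per library, and the shares of member cells and the 5 edgeR comparisons were recomputed without them. UMIs were summed per mouse and class, low genes were removed with edgeR's filterByExpr, and edgeR 4.0.16 (TMM, quasi-likelihood, Benjamini-Hochberg, threshold 0.05) was fitted in R 4.3.3, with the mouse as a block where classes of 1 mouse were compared. CPM is the UMIs of a gene divided by all UMIs of its class and scaled to 1000000. Genes were named by rule: in each comparison the 10 largest rises and falls among called genes with a mean of at least 20 CPM and the same direction in every mouse (by genotype, no overlap), members of each list in order of p and then abundance, the rule genes and Prmt1. Genes named to fill a count of 5 or fewer, and Ephx1, Trim16, Hmox1 and Nfe2l2, were picked after their values were seen. Ddit3 and Aldoa, with several identifiers, were left out of the lists, and Clec7a was not analysed here. Shares were compared by exact permutation of the 4 mice. Alternatives were DESeq2 1.42.0, no filter on low counts, a mitochondrial limit of 5%, 3 rule genes, cells matched on UMIs in log2 bins of 0.25, marker-restricted cells, comparison cells without Mrc1, and leaving out each mouse. The labels do not say that libraries came from separate litters. For genotype within a class, p-values rest on the spread between these 4 mice. Where the mouse was a block, they rest on how much the difference between classes varied from mouse to mouse. The scripts were tested on simulated data.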

Additional observations from a re-analysis of the deposited data

Results flagged for a closer look

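The effect of genotype (PRMT1Cx3cr1-KO against PRMT1FL) differed between member cells and cells without the 4 genes for 47 of the genes named, by the edgeR interaction test at an adjusted p of at most 0.05. Values are differences of log2 fold changes, positive where the effect was more positive in member cells, and the 4 mice give 2 values per genotype in each class.

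Among genes of oxidant defense and iron, the difference was 0.75 for Sqstm1, 0.39 for Ftl1, 1.24 for Gclm, 0.89 for Gclc, 1.40 for Blvrb, 1.32 for Cat (catalase), 0.61 for Taldo1 and 2.11 for Slc40a1. It was 0.89 for Slc11a1, which moves iron out of phagosomes, 0.63 for Mafg and 0.31 for Nfe2l2. Among amino acid synthesis genes it was -0.81 for Psat1 and -0.49 for Phgdh, both of the serine pathway.

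Microglial state genes went both ways: 1.02 for P2ry12, 0.91 for Sall1, 1.61 for Adgrg1, -0.89 for Cst7, -0.37 for Ctsd and -0.30 for Ctsb. Immune genes gave -0.42 for H2-DMa, -0.64 for Ifitm3, -1.15 for Rsad2, -1.09 for Cxcl2, -1.37 for Ptgs2 and -1.32 for Cd69, but 1.82 for the inhibitory receptor Cd300a. Cell cycle genes were all negative: -1.11 for Top2a, -1.28 for Cdk1, -1.31 for Ube2c and -1.48 for Cenpf. The glycolytic Gapdh and Ldha gave -0.64 and -0.62. Stress and growth genes gave 2.27 for Hspa1a, 0.88 for Jund, 0.52 for Btg2, 0.85 for Bbc3 and 1.47 for Txnip, which binds thioredoxin. Txnip was at 194, 223, 209 and 188 CPM in cells without the 4 genes and 88.8, 113, 312 and 267 CPM in member cells, so that PRMT1FL member cells stood lowest and PRMT1Cx3cr1-KO member cells highest.

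The remaining genes were Mmp12 at 3.49, Pdlim4 at 1.78, Hist1h1d at 1.69, B430306N03Rik at 1.44, Prmt1 at -0.44, Chst11 at -1.47, Cspg4 at -1.39, Colec12 at -1.36, Fn1 at -1.34 and Ptn at -3.11. With cells matched on UMIs, 7 of the 47 differences did not pass: Cd69 at -0.61, Phgdh at -0.43, Bbc3 at 0.33, Ctsb at -0.17, H2-DMa at -0.30, Top2a at -0.72 and Prmt1, as large as before, at -0.47. Among matched cells with microglial markers alone, 11 of the 46 tested did not pass. The differences of B430306N03Rik (1.73), Gclc (1.003) and Bbc3 (0.92) were larger than before and lost the call only, whereas those of Mmp12 (1.29, edgeR adjusted p = 0.58), Hist1h1d (0.93), Ptgs2 (-0.43), Nfe2l2 (0.25), Phgdh (-0.29), Btg2 (0.28), Top2a (-0.87) and Prmt1 (-0.39) were smaller. Ptn could not be tested there, and its difference was -0.66 among cells with microglial markers alone, where it did not pass.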

How the results depend on the processing

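The difference in the share of member cells kept its sign under every alternative run, at 2.60 percentage points without cells like simulated doublets, 0.974 with at least 3 of the 4 genes, 1.97 counting only member cells with Gdf15, 1.99 with Gdf15 left out of the rule, 1.90, 1.14 and 0.719 after thinning to 4000, 2000 and 1000 UMIs, and 2.81 to 3.50 leaving out a mouse.

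Counts of calls moved more. Against 402 genes, the comparison of member cells with cells without the 4 genes gave 945 with at least 3 genes and 228 to 538 leaving out a mouse, and 42 with no replicate block, all 42 among the 402. Genotype within member cells gave 835 calls, but 14 with at least 3 genes, 276 with member cells drawn to like UMIs, 259 when also restricted to cells with microglial markers, 343 by DESeq2 and 653 to 849 leaving out a mouse. Genotype within cells without the 4 genes gave 221 calls, but 81 with a 5% mitochondrial limit, 84 with microglial markers alone, 875 by DESeq2, 2024 with no filter on low counts and 5 to 3146 leaving out a mouse. The difference of effects gave 1517 calls, but 155 with at least 3 genes, 553 matched on UMIs, 484 matched with microglial markers alone, 769 by DESeq2 and 655 to 1333 leaving out a mouse. The comparison by Gdf15 gave 3 calls, but 1 with microglial markers alone, 1 when these were also matched, 1 by DESeq2, 20 with at least 2 UMIs of Gdf15, 53 with no filter, 0 with no replicate block (edgeR) and 1 to 7 leaving out a mouse. The cause of these changes was not tested.

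Among named genes called in at least 1 of the settings compared, signs turned for Cd74 (1.40) and Hspa1a (-0.16) for genotype within member cells with at least 3 genes, for Cenpf (11.52), Ube2c (1.36) and Rsad2 (0.24) for the difference of effects with at least 3 genes, where PRMT1FL mice had 6 and 10 cells, and for Cd74 in the difference of effects among matched cells with microglial markers alone (-1.44). H2-Aa (-2.05), H2-Eb1 (-3.12) and H2-Ab1 (-0.86) turned there too. Values called in neither setting turned for Cd74 and H2-Aa with microglial markers alone (-0.23 and -0.25) and with cells matched on UMIs (-0.08 and -0.08). Those of H2-Eb1 (-0.34) and H2-Ab1 (-0.09) turned with microglial markers alone. That of Cd74 also turned without PRMT1Cx3cr1-KO mouse 1 (-0.12). Matching on UMIs among cells with microglial markers alone, drawing member cells to like UMIs, and leaving out comparison cells with a UMI of Mrc1 (392 calls for member cells against the others, 213 for genotype within the others and 1643 for the difference of effects) were chosen after seeing the data.

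Replicate numbers pair mice across genotypes only by number: deviations of same-numbered mice correlated at 0.05 in member cells and 0.349 in cells without the 4 genes. With that replicate block the share difference stayed 3.15 points (exact permutation p = 0.5), and the genotype calls numbered 1146 in member cells and 1018 in cells without the 4 genes. Leaving out a mouse leaves 1 mouse in a genotype, which is then assumed to vary like the other 2.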

Other observations

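Over the 1033 member cells, the genes whose level followed the number of rule genes most closely, of 7836 genes compared, were Sqstm1 (Spearman 0.297), Blvrb (0.296), Tnfaip2 (0.272), Gclm (0.263) and Ftl1 (0.256), while the total UMIs of the cell gave -0.0502. The cells share 4 libraries and the values are a description. PRMT1Cx3cr1-KO member cells more often had 3 or 4 rule genes and had higher levels of these genes, so the pooled values include the genotype difference. Within PRMT1FL mice 1 and 2 and PRMT1Cx3cr1-KO mice 1 and 2, the values were 0.0655, 0.0245, 0.271 and 0.324 for Sqstm1 and -0.0317, 0.324, 0.309 and 0.206 for Blvrb. They were -0.112, 0.0786, 0.247 and 0.277 for Tnfaip2, -0.148, 0.318, 0.310 and 0.161 for Gclm and 0.0910, 0.0543, 0.270 and 0.185 for Ftl1, so that PRMT1FL mouse 1 gave no value above 0.0910. Over 18 sums by mouse and number of rule genes, of 5277 genes, Nupr1 (0.945), Cdkn1a (0.941), Mat2a (0.939), C1qb (-0.936) and Mical1 (0.936) followed it most closely.

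The letters TGATGCAA were found in the promoter windows of 8 of 217 genes higher in member cells that had a window (3.69%: Atf3, Chac1, Nupr1, Bcl2a1b, Nlrp3, Jdp2, Iars and Gadd45g), in 2 of 97 lower genes (2.06%, Fgl2 and H2-Ob) and in 82 of 10418 tested genes (0.787%). TGANTCAGC was found in 3 of the 217 (1.38%: C77080, Cxcl10 and Plaur), in 0 of the 97 and in 131 of the 10418 (1.26%). Among the genes whose genotype effect was more positive in member cells, 9 of 461 (1.95%) held TGANTCAGC and 7 (1.52%) TGATGCAA, and among those where it was more negative 14 of 737 (1.90%) and 6 (0.814%) did.

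Among the 56 cells with at least 3 oligodendrocyte markers, 14 (25.0%) had a UMI of Gdf15, against 4.71% of cells with microglial markers, and none was a member cell.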
